A study of Mus musculus with 44 samples.

Results

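The major urinary protein genes examined here were Mup1, Mup2, Mup3, Mup5, Mup20 and Mup21, 6 of the 48 rows of this family among 38202 rows in all. They were chosen by symbol, from a list drawn up with their read counts in these libraries and the KO to WT difference of Mup5 in liver already known, and with no threshold. That difference is therefore given as a description of where the gene stands among all genes and not as independent evidence. RNA had been sequenced from 11 WT and 11 Slc16a13 KO mice, with liver and skeletal muscle taken from each. All were males on the C57BL/6N background, were 20 weeks old when killed and had eaten high-fat diet (HFD) for 15 weeks. According to the methods of the study, mice were fasted overnight before killing and WT littermates served as controls. The KO is a constitutive CRISPR/Cas9 deletion in the whole body, so an effect that arose in the liver and one that arose elsewhere cannot be told apart.

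Slc16a13 encodes a lactate transporter of the plasma membrane. It was counted 99 to 302 times in WT livers and 0 to 8 times in KO livers. In muscle it had 4 to 22 reads in WT libraries and 11 to 40 reads in those of the other group, against the label, so the latter are called the muscle libraries labelled KO. Liver libraries held 20150712 to 33733103 reads and muscle libraries 21703841 to 35218243. Tissue markers fitted the labels, since 12 hepatocyte markers summed to between 109846 and 151353 CPM (counts scaled to library size) in liver and 9 skeletal muscle markers to between 144588 and 197742 CPM in muscle. In 4 KO livers (animals 532, 583, 602 and 611) long genes had fewer reads than in the rest, and the slope of log2 CPM, taken relative to the mean of the tissue, against the log2 of gene length ran from -0.535 to -0.0787. The other 7 KO livers had slopes of 0.0375 to 0.108 and the 11 WT livers of 0.0396 to 0.0955. Results on genotype in liver are given with and without these 4 livers.

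Major urinary proteins are small secreted lipocalins, barrel-shaped proteins that bind volatile ligands. In the mouse, hepatocytes release them into the blood, the kidney filters them into urine, and there they act in scent communication. The genes lie in a tandem cluster of near-identical copies, and in liver their expression is known to be higher in males and to depend on pulses of growth hormone. The mature transcripts differ by so few bases that a short read often matches several genes.

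To show how far the 6 genes can be told apart by a read of 85 bases, the first 85 coding bases of each are printed here from the GENCODE M21 transcripts, 5′ to 3′. Capitals mark bases that differ from the aligned Mup1 sequence or have no partner in it.
Mup1: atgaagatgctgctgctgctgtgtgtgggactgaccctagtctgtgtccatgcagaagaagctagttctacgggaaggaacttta
Mup2: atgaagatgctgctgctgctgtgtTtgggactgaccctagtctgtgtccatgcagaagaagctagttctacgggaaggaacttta
Mup20: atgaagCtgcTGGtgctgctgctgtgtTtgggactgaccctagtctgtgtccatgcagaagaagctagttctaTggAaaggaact
Mup5: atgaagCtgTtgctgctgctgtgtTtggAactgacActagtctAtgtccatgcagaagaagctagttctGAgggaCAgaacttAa
Mup21: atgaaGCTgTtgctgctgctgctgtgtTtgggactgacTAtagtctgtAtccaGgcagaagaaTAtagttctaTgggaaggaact
Mup3: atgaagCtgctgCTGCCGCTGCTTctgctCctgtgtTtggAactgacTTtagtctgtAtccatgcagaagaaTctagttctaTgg
Mup1 and Mup2 differed at 1 of these positions, and the Mup2 stretch also occurred in the transcripts of Mup9 and Mup17. Mup20 carried 7 marked bases, Mup5 11, Mup21 12 and Mup3 21.

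Over the whole coding sequence the contrast was the same. Mup1 differed from Mup12 at 2 of 543 aligned positions and Mup2 from Mup15 also at 2 of 543. The other 4 genes had no such twin. The closest of the 21 numbered Mup genes was Mup21 for Mup3 and Mup3 for Mup21 (94.8% identity), Mup4 for Mup5 (92.1%) and Mup18 for Mup20 (91.4%). When each transcript was cut into all windows of 85 bases, 10.8% of the Mup1 windows and 0.83% of the Mup2 windows (7 of 843) were found in the transcripts of no other gene. The corresponding shares were 58.3% for Mup20, 92.9% for Mup21, 95.3% for Mup3 and 96.9% for Mup5. A Mup1 window was shared with up to 16 other genes. Whether reads that match several genes were dropped or split by the authors is not given in the sources used here. Mup19, with 0 of 843 distinct windows, had 2 reads over 11 WT livers and 0 over 11 KO livers. Levels of Mup1 and Mup2 are therefore uncertain, while Mup3 and Mup21 had few shared windows. Mup5 also had few, but some were shared with up to 16 other genes. It had only 5 to 22 reads in a WT liver. Whether stray reads from abundant copies add to them was not tested.

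Upstream sequence of the closest pair, Mup3 and Mup21, is shown because these genes shared most of their coding bases and differed widely in level. The 250 bases before each annotated start are from RefSeq (build GRCm38.p6, minus strand). Capitals mark bases that differ from the aligned partner or have none.
Mup3 (chr4:62087318-62087567): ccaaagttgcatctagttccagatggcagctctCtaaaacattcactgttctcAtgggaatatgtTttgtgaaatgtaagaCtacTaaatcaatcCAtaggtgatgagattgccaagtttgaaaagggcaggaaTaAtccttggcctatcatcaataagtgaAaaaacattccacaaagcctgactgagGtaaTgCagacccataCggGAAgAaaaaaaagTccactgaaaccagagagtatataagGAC
Mup21 (chr4:62150842-62151091): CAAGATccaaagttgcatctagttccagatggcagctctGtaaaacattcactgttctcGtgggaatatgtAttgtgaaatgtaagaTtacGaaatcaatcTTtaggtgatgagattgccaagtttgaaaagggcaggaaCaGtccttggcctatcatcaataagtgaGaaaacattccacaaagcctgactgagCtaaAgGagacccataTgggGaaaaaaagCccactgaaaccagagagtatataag
These stretches were identical at 228 of 256 aligned positions (89.1%). Both held 1 match to TATATAA, a motif chosen after these sequences were seen and searched on both strands, at 11 bases before the annotated start in Mup3 and 8 in Mup21. Mup2, the other listed gene with an entry, held 1 match at 27 bases before its start. Among 32851 promoters of this length, 3.04% held TATATAA. On either strand, none of the 3 held TATAAA (12.4% of all promoters), whose letters can overlap those of the former motif, the STAT5 motif TTCNNNGAA (7.02%), the C/EBP motif TTGCNNAA (9.56%) or an HNF1 motif (0.131%). No entry was found for Mup1, Mup5 and Mup20.

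In liver the 6 genes covered a very wide range, and their order by median level was Mup3, Mup20, Mup21, Mup1, Mup2 and Mup5. Levels between genes are given as RPKM, which the authors calculated from reads, gene length and library size. In 11 WT livers Mup3 stood at 4178 RPKM in the lowest, 5775 in the median and 7349 in the highest mouse. Mup20, which encodes the male pheromone darcin, had 886, 1556 and 2110 RPKM. Every WT liver had more Mup3 than Mup20, and the ranges did not overlap. Mup21 followed with 65.4, 105 and 149.7 RPKM, far below Mup3, its closest relative by sequence. Mup1 had 6.72, 31.9 and 102 RPKM, which overlapped the Mup21 range. Mup2 had 3.18, 8.45 and 10.5 RPKM and overlapped the lower end of Mup1. Mup5, a divergent member described mainly from exocrine glands, came last with 0.223, 0.548 and 0.969 RPKM, below every Mup2 value. The RPKM values divide by a gene length that the authors set, and a gene with few distinct windows, such as Mup1 or Mup2, can be told apart on a small part of that length.

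**Figure D1:**
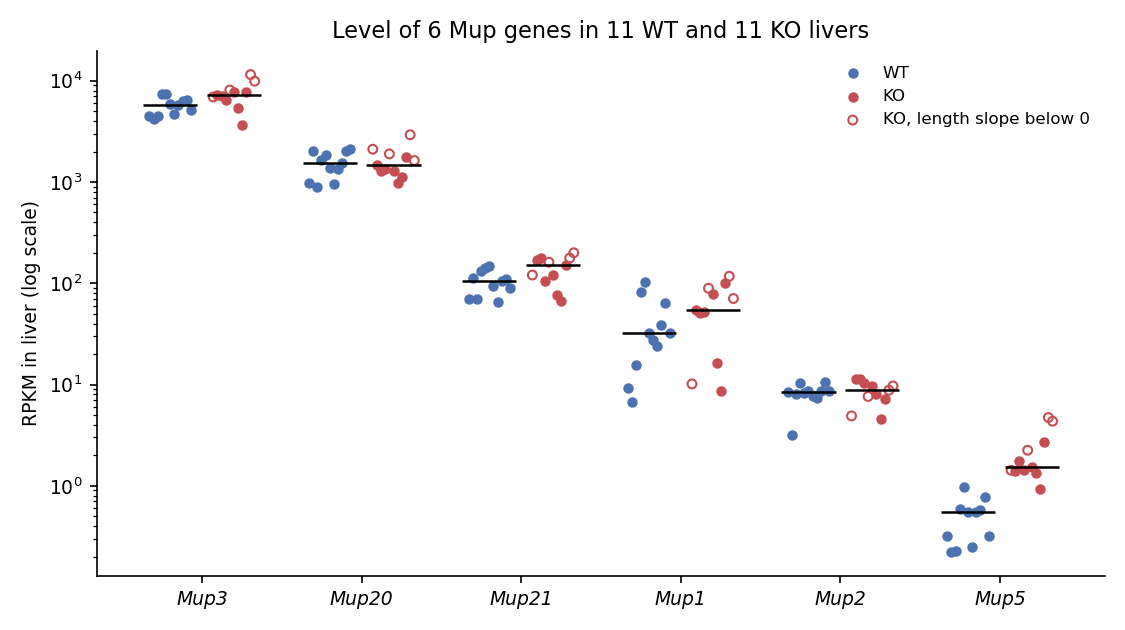
RPKM on a log axis of the 6 listed Mup genes in 11 WT and 11 KO livers, with 1 point a mouse, lines at the medians and open points for the 4 KO livers with a length slope below 0. Mup3 had the highest median (5775 RPKM in WT) and Mup5 the lowest (0.548 RPKM), and Mup1 was the most scattered gene.

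All 48 Mup rows together took 0.624% to 1.31% of a WT liver library (median 0.911%) and 0.555% to 1.94% of a KO liver library (median 1.11%). Most of these reads belonged to the listed genes, with 56.5% on Mup3 and 15.6% on Mup20 over the 11 WT livers. Mup21 held 0.765%, Mup1 0.339%, Mup2 0.0726% and Mup5 0.00485%. Among rows not listed, Mup10 held 12.9%, Mup7 4.30%, Mup17 4.03% and Mup11 3.55%, and no other reached 1%. In the 11 KO livers the shares were 58.6% for Mup3, 12.8% for Mup20 and 0.0174% for Mup5.

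Mice of the same genotype differed far more in Mup1 than in the other listed genes. Over 11 WT livers Mup1 counts ran from 130 to 1997 reads, with a median of 652, which is a 15.2-fold range in CPM. The SD of its log2 CPM was 1.26, and 58 of 13005 genes tested had a larger one. The median SD over all genes was 0.17. Mup5 had an SD of 0.64, at counts of 5 to 22 reads, where counting error alone is large. Mup2 had an SD of 0.49, Mup20 of 0.47, Mup21 of 0.45 and Mup3 of 0.33. In the 7 KO livers with a slope above 0, the SD of Mup1 was 1.29, and 68 genes had a larger one.

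The rows with the widest scatter were the near-identical copies. Mup9, Mup15 and Mup7, with 12.7%, 0.83% and 10.4% distinct windows, had SDs of 1.74, 1.67 and 1.66 in WT livers. Mup10 and Mup2 also had few distinct windows (14.4% and 0.83%) and had small SDs of 0.33 and 0.49. A small share of distinct windows was thus not always accompanied by wide scatter. Whether the scatter of these rows lies in their transcripts or in the assignment of shared reads was not tested.

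**Figure D2:**
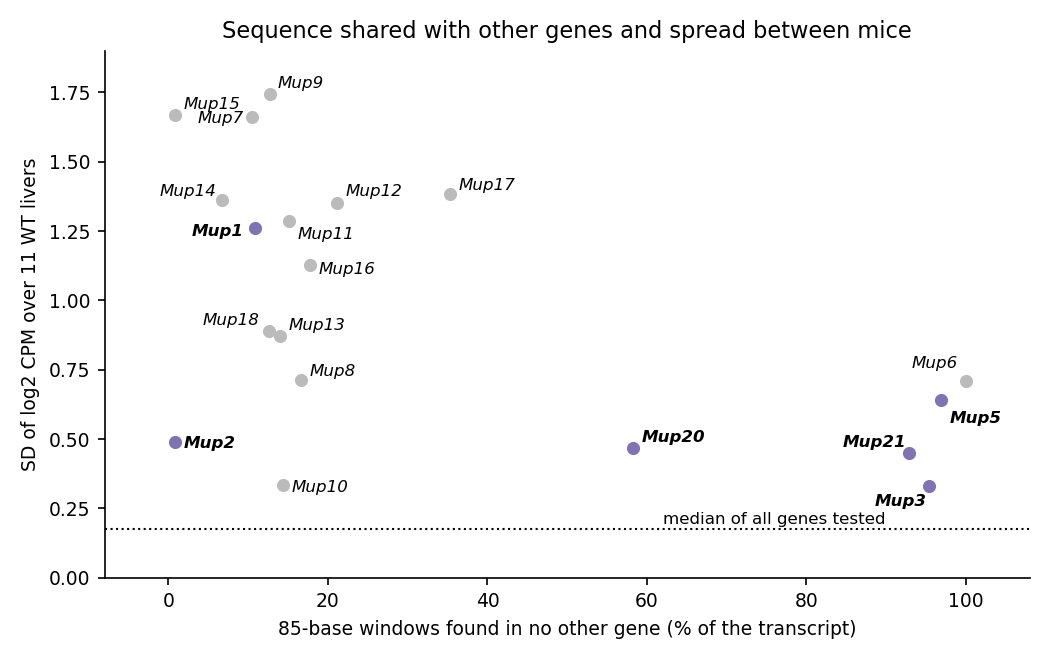
Share of 85-base windows of each transcript found in no other gene (x axis, %) against the SD of log2 CPM over 11 WT livers (y axis) for 19 numbered Mup genes that passed the filter on low counts, with the listed genes in purple and a dotted line at the median SD of all 13005 genes (0.17). Mup1 combined few distinct windows (10.8%) with an SD of 1.26, and Mup3, Mup5, Mup20 and Mup21 lay at lower SDs with 58.3% or more.

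Mice with high Mup1 also had high Mup3 and Mup5. Of 15 pairs of listed genes, 3 passed by Pearson's r as well as by Spearman's rho over the 11 WT livers (two-sided permutation tests, Benjamini-Hochberg adjusted over 15 pairs). For Mup1 and Mup3, r was 0.94 (adjusted p = 0.0003) and rho 0.95 (adjusted p = 0.000375). For Mup3 and Mup5, r was 0.94 and rho 0.95, both with an adjusted p of 0.000375. For Mup1 and Mup5, r was 0.84 (adjusted p = 0.007) and rho 0.89 (adjusted p = 0.00255). Without the 2 mice farthest from the median of the first gene, r was 0.92, 0.97 and 0.83. Of the windows of Mup3 and Mup5, 95.3% and 96.9% were distinct. No pair with Mup20 or Mup21 passed in both measures, with r from -0.04 to 0.66. These values rested in part on 2 mice, since without the 2 farthest r with Mup20 was 0.76 for Mup1, 0.77 for Mup3 and 0.58 for Mup2, and r with Mup21 was 0.77 for Mup1 and 0.76 for Mup3. In the 7 KO livers r with Mup1 was 0.85 for Mup20 and 0.84 for Mup21. Whether the pairs differ from each other in r was not tested. Over the 7 KO livers with a slope above 0, only Mup1 and Mup3 passed in both measures by exact permutation tests (r = 0.96, adjusted p = 0.00595, and rho = 0.96, adjusted p = 0.0417). There, Mup3 and Mup5 had an r of 0.81 (exact permutation adjusted p = 0.0767).

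Mup1 was also set against each of the other 18 numbered rows, a comparison chosen after the values were seen. Of these, 17 passed in both measures over the 11 WT livers, and Mup20 did not (r = 0.47, permutation adjusted p = 0.149). The closest was Mup12, its nearest copy by sequence, with an r of 0.99. The 13 rows outside the list had r from 0.67 to 0.99 in WT livers and from 0.87 to 0.99 in the 7 KO livers. Whether copies that share most windows give separate measurements was not tested, as the treatment of shared reads is not known. Counts of such copies could differ widely, with WT liver medians of 27905 reads for Mup10 and 65 for Mup18. Mup6, with 100% distinct windows, had an r of 0.81 with Mup1, or 0.61 without the 2 farthest mice.

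Genes outside the family that ran most closely with each Mup gene over the 11 WT livers were found by Pearson's r of log2 CPM among 13005 genes. These are the highest of many values and carry no test. Mup3 was closest to Slco1a1, an organic anion transporter higher in male liver (r = 0.96), Hsd3b5, a steroid enzyme higher in male liver (0.95), and Slc22a28, a solute carrier (0.95). In the 7 KO livers with a slope above 0, r with Mup3 was 0.96 for Slco1a1, 0.94 for Hsd3b5 and 0.82 for Slc22a28. Mup1 was closest to Serpine2, a protease inhibitor (0.96), and this r was 0.97 in the 7 KO livers. Its next were Elavl1 (0.95) and Vcpip1 (0.95), with 0.45 and -0.44 in the 7 KO livers. Mup5 was closest to Afdn, a protein of cell junctions (0.95), Hsd3b5 (0.93) and Nsd2, a histone methyltransferase (0.93). Only Hsd3b5 of these kept an r over 0.5 in the 7 KO livers (0.73).

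For Mup2 the closest genes were Jade3 (0.92), Cct6a, a subunit of a chaperonin (0.91), and Acin1 (0.91). In the 7 KO livers these had r of -0.15, 0.81 and 0.64. For Mup20 the closest were Snu13 (0.88), Tars, a tRNA synthetase (0.87), and Golga5 (0.87), with -0.12, 0.66 and 0.47 in the 7 KO livers. For Mup21 they were Hmox2, a heme oxygenase (0.87), Trim28, a corepressor (0.86), and Myo1e (0.86). Their r in the 7 KO livers was -0.19, 0.71 and 0.56. The summed CPM of the 6 genes ran closest with Pard3b (0.96), Rusc2 (0.95), Cmah (0.95), Trp53inp2 (0.94) and Serpina1e, a secreted protease inhibitor (0.93). Of these 5, Serpina1e had an r of 0.94 in the 7 KO livers and the others -0.24 to 0.43.

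The comparison of KO with WT livers asks which of these genes differ when Slc16a13 is deleted. Mup5 was higher in KO livers and was the only one of the 6 to pass the threshold. Its counts in WT livers were 5 in the lowest, 11 in the median and 22 in the highest mouse, and in KO livers 19, 37 and 125. In CPM these were 0.206, 0.507 and 0.897 against 0.865, 1.43 and 4.37. Of 11 KO livers, 10 lay above every WT liver. The ranges met only between the lowest KO mouse (animal 597) and the highest WT mouse (animal 537). Counts of this kind were not taken for all genes tested, so nothing is read from them. Mup5 rose by a log2 fold change of 2.23 (SE 0.33, adjusted p = 0.00223, quasi-likelihood test of edgeR, Benjamini-Hochberg) and ranked 3 of 13005 genes by p. At this threshold 0.0231% of all genes tested were called, 3 in number, among them the deleted gene. As the gene was listed with this contrast known, nothing is read from its call.

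Without the 4 KO livers whose long genes had fewer reads, Mup5 had counts of 19 to 62 in the other 7 and a log2 fold change of 1.73 (SE 0.28, adjusted p = 0.024). It was 1 of 3 genes called, 0.0227% of 13210. Of these 7 livers, 6 lay above every WT liver. The 4 left out had counts of 37, 57, 120 and 125, so the 2 highest Mup5 values of all belonged to libraries with a shortage of reads on long genes. The part of this property in their level was not tested. After a loess on gene length was taken out of each library, the log2 fold change over all 22 livers was 2.05 (SE 0.31, adjusted p = 0.00508).

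Because Mup5 and Mup3 ran together among mice, the counts of Mup5 per 100000 Mup3 reads were also taken, after the values were seen and with no test. This ratio was 5.09 in the lowest, 8.07 in the median and 13.2 in the highest WT liver. In KO livers it was 19.4, 25.1 and 43.9, and the groups did not overlap. In the 7 KO livers with a slope above 0 it was 19.4, 24.5 and 34.9. Mup5 was listed with its KO to WT difference known, and no such ratio was taken for other genes. Nothing is therefore read from this separation. The lowest KO liver by Mup5 level, animal 597, also had the lowest Mup3 of all 22 livers (3350 CPM), and its ratio of 25.8 was among the other KO values.

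**Figure D3:**
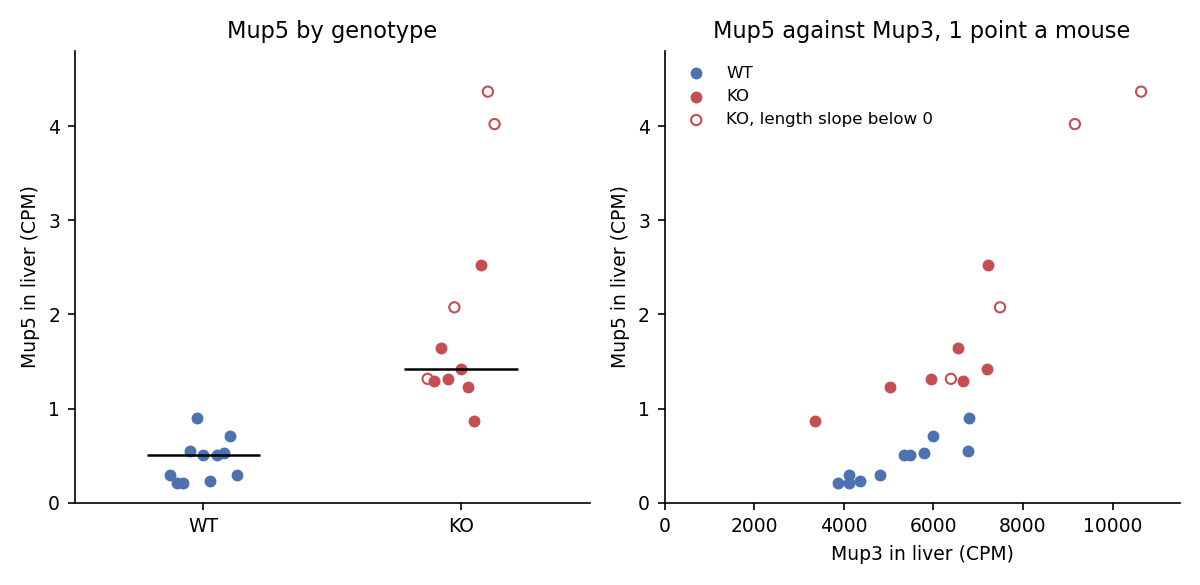
Left, CPM of Mup5 in 11 WT and 11 KO livers with lines at the medians (0.507 and 1.43 CPM). Right, CPM of Mup5 against CPM of Mup3 in these mice, with open points for the 4 KO livers with a length slope below 0. Mup5 was listed with its KO to WT difference known, and the comparison with Mup3 was chosen after the values were seen. Nothing is therefore read from the difference between KO and WT mice in either panel.

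None of the other 5 genes passed the threshold in liver. Mup3 had 93770, 136377 and 168181 reads in WT livers and 73598, 177834 and 292367 in KO livers, with 5 KO livers above every WT liver and 1 below. Its log2 fold change was 0.46 (SE 0.17, p = 0.00979, adjusted p = 0.382). Mup21 had 956, 1856 and 2598 reads against 994, 2551 and 4209, with 6 KO livers above every WT liver. Its log2 fold change was 0.48 (SE 0.20, p = 0.0223, adjusted p = 0.382). Both differences were smaller without the 4 livers, at 0.22 (SE 0.16, p = 0.175) for Mup3 and 0.28 (SE 0.21, p = 0.213) for Mup21. The 4 livers themselves had 179651 to 292367 reads of Mup3, 2294 to 4209 of Mup21 and 47000 to 74658 of Mup20. Their Mup20 counts were above those of the other 7 KO livers (22672 to 39965). How many of all genes had as many KO livers above every WT liver as Mup3 or Mup21 was not counted.

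Mup1 had 130, 652 and 1997 reads in WT livers and 152, 1065 and 2569 in KO livers, and its log2 fold change of 0.64 was close to its SE of 0.47 (adjusted p = 0.453). Without the 4 livers it was 0.40 (SE 0.50). Mup20 had 19593, 32525 and 66058 reads against 22672, 33421 and 74658, a log2 fold change of 0.17 (SE 0.20, adjusted p = 0.62). For Mup20 the sign turned without the 4 livers, to -0.18 (SE 0.18, adjusted p = 0.999), and with gene length removed, to -0.028 (SE 0.16). Mup2 had 63, 164 and 241 reads against 81, 171 and 244, a log2 fold change of 0.11 (SE 0.18, adjusted p = 0.737), and 0.15 (SE 0.20) without the 4 livers and -0.019 with gene length removed. WT and KO livers overlapped over most of their range in all 3 genes.

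Counted together, 3 of the 6 genes (Mup3, Mup5 and Mup21) were higher in KO livers at an unadjusted p under 0.05, where 9.78% of all genes tested were. Over all genes this direction depended on the scaling, since 1272 of 1675 genes at this p were higher in KO livers with TMM and 514 of 1408 with library size alone. Without the 4 livers it was 1 of 6, where 1.36% of all genes were. The median log2 fold change of the 6 was 0.47, beside -0.0054 for all genes, and 0.25 without the 4 livers, beside 0.00065 for all genes. Of the 13 other numbered rows tested, none was called, and their log2 fold changes ran from 0.14 to 0.95, or from 0.012 to 0.60 without the 4 livers. At an unadjusted p under 0.05, 1 of these 13 was higher in KO livers with all mice and 0 of 13 without the 4 livers (edgeR). Of 27 Mup pseudogene rows 6 were tested and none was called, with values from -0.19 to 0.64 and 0 at an unadjusted p under 0.05 (7 tested without the 4 livers, from -0.30 to 0.39).

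**Figure D4:**
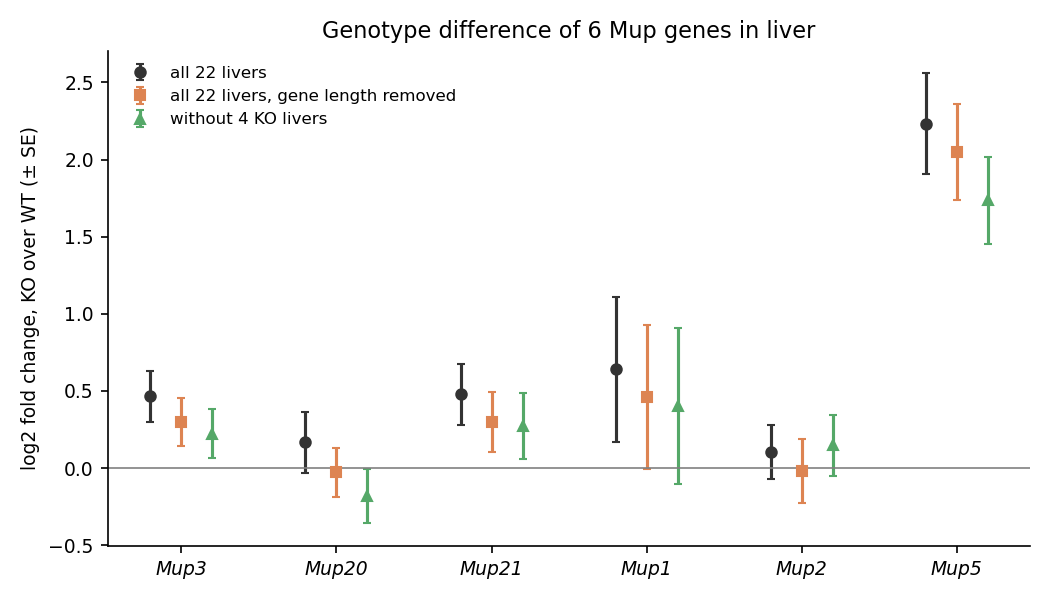
Log2 fold change of KO over WT with its SE for the 6 listed genes in liver, from all 22 livers (black), from all 22 with gene length removed (orange) and without the 4 KO livers with a slope below 0 (green). Mup5 lies at 2.23, 2.05 and 1.73, and the other 5 lie between -0.18 and 0.64.

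In skeletal muscle the family was present in traces. All Mup rows together had 65 reads in the 11 WT muscle libraries and 140 in the 11 labelled KO. Mup3 accounted for 117 of these 205 reads, Mup10 for 50 and Mup20 for 14. Mup3 had 0, 2 and 12 reads in the lowest, median and highest WT muscle and 1, 4 and 29 in those labelled KO. Mup20 had 0 to 1 reads in WT muscle and 0 to 6 in that labelled KO. Mup2 and Mup21 had 1 read each over 22 libraries. Mup1 and Mup5 had 0 reads in every muscle library, which allows up to 3 reads over 587398982 in all (0.00511 CPM). Liver held at least 7749-fold more Mup1 and at least 249-fold more Mup5 by CPM when all libraries of a tissue were pooled, and 30688-fold more Mup3. Such intervals and floors cover counting error only.

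No member passed the filter on low counts in muscle, so genotype was tested there only in a fit without the filter, for the 4 members with any read, and none was called (edgeR). Mup20 had a log2 fold change of 2.59 (SE 0.80, p = 0.00345, adjusted p = 0.26) on 14 reads, and Mup3 of 0.84 (SE 0.62, p = 0.186, adjusted p = 0.601). Mup2 and Mup21, with 1 read each, had an adjusted p of 0.601. Of 13266 genes tested in muscle, 0.00754% were called, 1 in number. This was Slc16a11, which lies next to Slc16a13 and was higher in the libraries labelled KO. Hepatocyte transcripts were present beside the Mup reads. Alb, which encodes serum albumin, had 5 to 109 reads in WT muscle (median 13) and 11 to 158 in muscle labelled KO (median 40). The 12 hepatocyte markers summed to 0.386 to 7.78 CPM in WT muscle and 0.635 to 13.1 CPM in muscle labelled KO. Among these markers, Alb and Apoa2 were above 0 in all 22 muscle libraries. Tat was at 0 in 8 of 11 WT libraries and 6 of 11 labelled KO, and Cps1 in 9 and 5. Alb was the only one tested, with a log2 fold change of 1.21 (SE 0.51, adjusted p = 0.522 by edgeR). There were 0 to 600 Mup reads per 1000 Alb reads in WT muscle (median 269) and 115 to 400 in muscle labelled KO (median 259), beside medians of 143 and 162 in WT and KO liver.

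Muscle libraries with more hepatocyte transcripts had more Mup3. Pearson's r between the summed hepatocyte markers and Mup3 was 0.82 in 11 WT muscles (permutation adjusted p = 0.00474, rho = 0.68, adjusted p = 0.0487). It was 0.90 in 11 muscles labelled KO (adjusted p = 0.001, rho = 0.87, adjusted p = 0.00396). With the 2 most extreme libraries by marker level left out it was 0.44 in WT, so that relation rests on those 2 libraries, and 0.83 in those labelled KO. Between Mup3 in muscle and in the liver of the same mouse, r was -0.16 in WT (permutation adjusted p = 0.701, rho = -0.28) and -0.13 in KO mice (adjusted p = 0.701, rho = 0.11), and no relation passed. Without the 2 mice farthest from the median in liver the sign turned, to 0.14 in WT and 0.51 in KO mice. These 4 relations formed 1 family, and the pair with hepatocyte markers was added after the values were seen. By deviation from the group mean over the 22 muscle libraries, the gene closest to the summed CPM of the 6 genes was Alb (r = 0.83), followed by 9130023H24Rik (0.74), Smc2 (0.69), Cenpa (0.68) and Pdzd11 (0.67). Where the Mup reads in muscle came from was not tested.

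**Figure D5:**
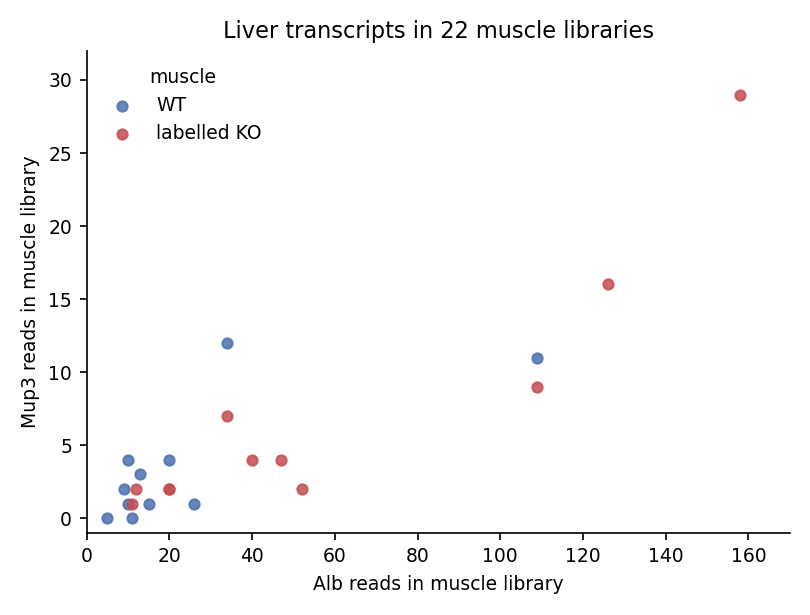
Mup3 reads (y axis) against Alb reads (x axis) in 22 muscle libraries, 11 WT and 11 labelled KO, with 1 point a library. The library with the most Alb reads (158) had the most Mup3 reads (29).

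Whether the genotype difference differed between tissues was tested by the interaction of genotype and tissue over all 44 libraries, and no Mup gene passed. Over 14739 genes 0.00678% were called, 1 in number. Of the 6 members, Mup20 had the smallest p in this fit. The difference between its log2 fold changes (liver minus muscle) was -2.36 (SE 1.11, p = 0.0384, adjusted p = 0.293 by edgeR's quasi-likelihood test). It rested on 14 muscle reads and was -0.84 (SE 0.84, p = 0.319) with limma-voom and -2.72 (SE 1.09, adjusted p = 0.993) without the 4 livers. Mup3 had -0.44 (SE 0.55, adjusted p = 0.681), or -0.70 (SE 0.57) without the 4 livers. Over the 6 members the values in this fit ran from -2.36 to 2.24, and 2 were above 0. Mup2 and Mup21 had 1 muscle read each. Mup1 and Mup5 were at 0 in all muscle libraries, so their values hold no measured difference in muscle. With limma-voom, which adds a prior to counts of 0, Mup5 had 2.21 (SE 0.50, p = 6.4e-05, adjusted p = 0.281).

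Genes of the pathways in which Mup expression is usually set were counted from lists drawn up for this purpose, and none passed the threshold in liver in either direction. Of 13 genes higher in male liver, 11 were tested, and their median log2 fold change was 0.20 with 9 of 11 above 0. Gstp1, a glutathione transferase, had 0.44 (SE 0.21, p = 0.0483), Cyp2d9, a cytochrome P450, 0.23 (SE 0.11, p = 0.0522) and Selenbp2 0.67 (SE 0.46, p = 0.157). Without the 4 livers the median was 0.05 with 7 of 11 above 0, and Gstp1, Cyp2d9 and Selenbp2 had -0.0033, 0.065 and 0.075. There, 0 of 11 were higher and 1 of 11 was lower in KO livers at an unadjusted p under 0.05 (edgeR). Over all genes, 391 of 13210 were at this p there in either direction, 179 of them higher in KO livers. The genes closest to Mup3 among mice had small differences for their spread, with 0.04 (SE 0.39) for Slco1a1 and 0.68 (SE 0.77) for Hsd3b5. Of 15 genes higher in female liver, 6 were tested, and their median was -0.27, or -0.06 without the 4 livers. Hao2, a peroxisomal oxidase, had -0.62 (SE 0.43, p = 0.159), Abcd2 -0.22 (SE 0.17, p = 0.227) and Cyp2b9 -0.40 (SE 0.51, p = 0.439). Without the 4 livers Hao2, Abcd2 and Cyp2b9 had -0.43, 0.020 and -0.12.

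All 12 genes of growth hormone signalling were tested, and 3 of 12 lay above 0 (median -0.12, or -0.04 without the 4 livers). Stat5a and Stat5b, the transcription factors that carry the hormone's signal, had -0.22 (SE 0.13, p = 0.0943) and -0.16 (SE 0.10, p = 0.126), and Ghr, the receptor, -0.10 (SE 0.07, p = 0.152). Without the 4 livers Stat5a, Stat5b and Ghr had -0.15, -0.010 and -0.0075. Of 13 regulators of liver transcription, 3 of 13 lay above 0 (median -0.12, or 0.03 without the 4 livers). Foxa1 had -0.32 (SE 0.17, p = 0.0726), Thrb, a thyroid hormone receptor, -0.26 (SE 0.16, p = 0.129) and Nr3c1, the glucocorticoid receptor, -0.21 (SE 0.14, p = 0.162). These values drew near 0 without the 4 livers for Thrb (0.03) and Nr3c1 (0.05), and Foxa1 had -0.20 there.

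Other secreted lipocalins are the nearest relatives of the family outside it, and none was called. All 9 tested of 11 had a log2 fold change above 0 (median 0.43). Of these, 4 were higher in KO livers at an unadjusted p under 0.05, beside 9.78% of all genes tested (edgeR). Without the 4 livers the median was 0.07 with 0 of 9, beside 1.36% of all genes. Ambp had 0.27 (SE 0.10, p = 0.0146). Apom, a carrier of sphingosine phosphate, had 0.43 (SE 0.18, p = 0.0223) and C8g, a complement subunit, 0.31 (SE 0.13, p = 0.023). Without the 4 livers Ambp, Apom and C8g had 0.065, 0.036 and 0.014. Hepatocyte markers gave 11 of 12 above 0 (median 0.21), with no call. At an unadjusted p under 0.05, 4 of 12 were higher in KO livers, beside the same 9.78% of all genes (edgeR). Among them were Ttr, Apoc3 and Ahsg with 0.30, 0.36 and 0.23. Without the 4 livers the median of the 12 markers was 0.04 with 0 of 12, beside 1.36% of all genes. There, Ttr, Apoc3 and Ahsg had 0.027, -0.026 and 0.10.

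Markers of other cells in liver gave no call. Skeletal muscle markers had a median of -1.03 over 4 tested of 9, with 0 of 4 at an unadjusted p under 0.05, Acta1 at -1.22 and Ckm at -1.06. Without the 4 livers the median was -2.29, and 5 of 5 tested were lower in KO livers at an unadjusted p under 0.05 (edgeR). Over all genes, 391 of 13210 were at this p there in either direction, 179 of them higher in KO livers. There, Acta1 had -2.81 (SE 0.79, p = 0.00212) and Ckm -2.91 (SE 0.82, p = 0.002). Summed muscle markers had a median of 5.76 CPM in WT and 2.68 CPM in KO livers. The highest values were 62.7 CPM in WT (animal 516) and 21.8 CPM in KO livers (animal 532). Animal 516 had a Mup5 count of 7, inside the WT range. Without this mouse the log2 fold change of Mup5 was 2.19 (adjusted p = 0.00739 by edgeR). Leaving out 1 mouse does not address the other livers, and whether muscle transcripts bear on the Mup5 difference was not tested. Adipocyte markers had a median of -0.21 over 2 tested (-0.33 without the 4 livers), with Cidec at -0.86 and Cfd at 0.44. Kupffer cell markers had 0.25 over 4 (0.11 without the 4 livers), with Clec4f at 0.34, Cd5l at 0.36 and Vsig4 at 0.15. Cholangiocyte markers had 0.049 over 3 (-0.085 without the 4 livers), with Krt19 at 0.62. Stellate and fibroblast markers had -0.32 over 3 (-0.19 without), with Lrat at -0.32. Endothelial markers had -0.056 over 2 (0.074 without), with Stab2 at -0.061. In bulk samples, fewer cells of a type and less RNA per cell cannot be told apart. In muscle no gene of the 12 lists was called among those tested, and none of the 3 cholangiocyte markers was tested.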

How the data were processed

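RNA-Seq tables of 44 libraries were used, 1 from the liver and 1 from the muscle of each of 11 WT and 11 KO mice. The authors deposited read counts per gene, not normalized, and RPKM values that they calculated per kilobase and library size. Libraries were stranded, from poly(A) RNA, with single-end reads of 85 bases. How reads were aligned and counted, on which build, and how those matching several genes were treated is not given in the sources used here, though a table's name speaks of unique reads. The submitters' processing notes name limma. Genotype, tissue and animal number came from the labels. The same number in both tissues was read as 1 mouse. Deviations of liver and muscle from their group means correlated with a median r of 0.10 (22 mice, from -0.026 to 0.26). For 6 of 22 mice the liver correlated best with the muscle of its own number among the muscles of its group. These values do not settle the pairing, which was taken from the labels.

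The members and the gene lists were chosen with earlier results of these data known. The 6 members are given in full, other Mup rows are named from 1% of Mup reads, and the genes closest by r and the 3 genes of each list with the smallest p in liver are named. Comparisons were added after the values were seen: Mup1 with the other numbered rows, Mup5 per Mup3 reads, Mup3 in muscle with hepatocyte markers, and the motif TATATAA. Of 38202 rows, 36340 had a symbol by matched identifier, and 1 row was not an Ensembl gene. No pair of libraries held identical counts (0 pairs).

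Counts were fitted in R 4.3.3 with edgeR 4.0.16 (TMM, filterByExpr with a minimum count of 10, quasi-likelihood F-test, Benjamini-Hochberg over all genes, threshold 0.05). The SE of a log2 fold change is its size divided by the square root of F. The 22 libraries of a tissue, or all 44 for the interaction, entered a fit. The procedure was tested on simulated counts. Alternatives were library size alone, scaling without the Mup rows, DESeq2 1.42.0, limma-voom 3.58.1, no filter, at least 10 reads in every library, a loess on gene length (span 0.3) as offset, limma on log2 RPKM with pseudocounts of 0.1 and 1, leaving out the 4 livers, the animal as block, and each mouse left out. Correlations used log2 CPM with a prior count of 2 and 100000 resamples, or all permutations for 7 mice. Spearman's rho and Pearson's r were both adjusted within a family. P-values measure the spread between mice. A floor of 3 reads was used. Windows and coding identity used 141767 GENCODE M21 transcripts and 1 transcript a gene, the one with a coding length nearest 543 bases. They were searched for exact matches on both strands, and reads from introns or unannotated copies were not considered. Promoters came from RefSeq.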

Additional observations from a re-analysis of the deposited data

How the results depend on the processing

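Mup5 stayed past the threshold in liver in 9 of 9 alternatives that tested it, with adjusted p from 4.91e-08 to 0.024. Its log2 fold changes ran from 1.02 (log2 RPKM with a pseudocount of 1) to 2.26 (DESeq2). It also passed in the 22 fits without 1 mouse (2.03 to 2.39, adjusted p from 0.00149 to 0.00783 by edgeR). These fits reuse the same livers, and Mup5 was listed with this contrast known, so they show dependence on processing and are not independent evidence. With at least 10 reads in every library Mup5 was not tested and 0 of the other 5 genes were called, since 4 WT livers had fewer reads. The count of genes called in liver was otherwise 1, also without any 1 mouse. No other member was called in any alternative. The sign turned for Mup2 (-0.019) and Mup20 (-0.028) with gene length removed and for Mup20 without the 4 livers (-0.18), and the cause was not tested. In muscle members were tested only without the filter on low counts (4 tested, 0 called), so the other alternatives and the fits without 1 mouse (0 called) say nothing of stability there. For the interaction 0 were called in the 8 alternatives that tested members, and none was tested with at least 10 reads in every library. Mup20 ranged there from -2.72 to -0.84 (limma-voom), with adjusted p from 0.215 to 0.993. With animal number as a replicate block, Mup20 had a difference of -2.37 (SE 0.86, adjusted p = 0.321) and 0 members were called, so the block changed no call. Over all genes, 3 were called in liver, against 6 with DESeq2 and 1 with at least 10 reads in every library, and for the interaction 1, against 44 with DESeq2, 3 with library size alone, 2 with gene length removed or without the 4 livers, and 0 with at least 10 reads. In muscle 1 gene was called, and 0 with limma, without a filter or with at least 10 reads. Of 15 pairs of genes in WT livers, 3 passed without the 2 farthest mice and with log2 RPKM, and 4 with gene length removed. At counts of 5 to 22 reads the WT level of Mup5 is limited by depth.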
